A study of Mus musculus with 105 samples.

Results

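The genes described here make cholesterol and fatty acids. They are 33 of the 22322 mouse genes in the deposited count table, taken by symbol and chosen for their place in the pathway: 7 early mevalonate enzymes, 11 enzymes of the sterol branch, 6 regulators and sterol carriers, and 9 fatty acid enzymes. Of the 33, 31 had enough exon counts to be tested and 29 had enough intron counts. Scd1 and Fads2, both fatty acid desaturases, were left untested in exons, with 245 and 115 counts over all libraries. Mvd and Tm7sf2 were also left untested in introns.

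Cholesterol is built from acetyl-CoA through mevalonate, farnesyl diphosphate and squalene, and fatty acids from the same acetyl-CoA through malonyl-CoA. Most of these genes are known targets of the SREBP transcription factors, which Scap carries out of the endoplasmic reticulum when sterols are low and which the Insig proteins hold back when sterols are plentiful. T cells that are stimulated through their antigen receptor are known to turn this programme on before they divide, and to draw on it for new membrane.

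The cells were primary CD4+ T cells of 6-week-old female C57BL/6J mice, taken from spleen and lymph nodes by negative selection. The activated ones had been stimulated with magnetic beads that carry CD3 and CD28 antibodies, and resting cells had not; how long the stimulation lasted is not given in the sources used here. There were 35 groups of 3 libraries each (replicates 2, 3 and 4), 21 of activated and 14 of resting cells. Activated cells were taken with cycloheximide, harringtonine, triptolide or DRB, with either transcription inhibitor joined to either translation inhibitor, or untreated. Resting cells had the same groups apart from DRB. Times were 0, 1 and 3 h. Triptolide (25 µM) and DRB (65 µM) stop RNA polymerase II. Cycloheximide (100 µg/ml) halts elongating ribosomes, and harringtonine (2 µg/ml) halts ribosomes just after they start. RNA was taken from equal cell numbers, with ERCC spike-ins, synthetic RNAs that allow a change to be stated per spike-in molecule. By its title and design text the study asked which mRNA decay needs translation.

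Exon counts per library ran from 6300 to 6479221, with a median of 2135827. Resting 1 h triptolide replicate 3 held the 6300 and activated 0 h untreated replicate 3 the next lowest total, 141028. CD4 T cell markers (Cd4, Cd3e, Cd3g and Lck) summed to 528 to 1501 CPM (counts-per-million) in activated libraries, against 535 to 1222 CPM in resting libraries. Summed B cell, CD8 and myeloid markers stayed at or under 18.4, 18.7 and 32.3 CPM in activated and 14.96, 11.98 and 23.7 CPM in resting libraries. The activation markers Il2ra, Cd69 and Myc summed to a median of 1195 CPM in activated and 158.6 CPM in resting libraries. In such bulk samples, fewer cells of a type and less RNA per cell cannot be told apart.

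Levels in single libraries are given in CPM, scaled by TMM, in the order of replicates 2, 3 and 4. Changes are log2 ratios ± SE of 3 libraries against 3, with p-values from edgeR's quasi-likelihood test adjusted over the 10741 genes tested in exons or the 10562 tested in introns. A gene is said to rise or fall where the adjusted p is under 0.05. TMM puts the typical mRNA at no change. A spike-scaled change is per ERCC molecule and is named as such. Exons of 6 of the genes overlap an exon of another protein-coding gene: Acss2 (Ggt7 and Gss), Cyp51 (Akap9), Fdft1 (Ctsb) and Srebf1 (Rai1) on the opposite strand, and Fdps (Gm43738) and Tm7sf2 (Vps51) on the same strand. Whether counting used the strand is not given in the sources used here, so their counts are uncertain to that extent, as are those of Acat2, which has the near copy Acat3.

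Per unit of transcript length, the synthesis genes covered a wide range in untreated cells at 3 h. In activated cells Fasn, the fatty acid synthase, averaged 334.5 TPM (transcripts-per-million, from counts per unit of exon length), Insig1 313 TPM, Acly, which makes acetyl-CoA from citrate, 206 TPM, Cyp51, the lanosterol demethylase, 198 TPM, and the regulator gene Srebf2 173 TPM. In resting cells the order differed, with Acly at 198 TPM, Srebf1 at 162.5 TPM, Insig1 at 131 TPM and Srebf2 at 99.0 TPM ahead of Fasn at 53.9 TPM. At the low end, Tm7sf2, a sterol reductase, averaged 2.08 TPM in activated cells, against 2.59 TPM in resting cells. Scd1 averaged 0.372 TPM in activated cells, against 0.292 TPM in resting cells, on 4 and 3 counts over the 3 libraries.

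Hmgcs1, Idi1, Sqle, Lss, Cyp51, Msmo1, Hsd17b7, Insig1, Stard4 and Fasn had their highest mean CPM of all 35 groups in untreated activated cells at 3 h. Sqle, Hmgcs1, Cyp51, Msmo1, Fdft1, Idi1 and Stard4 had their lowest in resting cells after 3 h of triptolide.

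Activated cells held more mRNA of several sterol branch enzymes than resting cells, and of Fasn. At 3 h untreated, Hsd17b7, Sqle, Cyp51, Lss and Msmo1, 5 of the 11 sterol branch genes, rose in activated over resting cells, as did Fasn and Acaca in fatty acid synthesis. Acss2, which makes acetyl-CoA from acetate, Scd2, a stearoyl-CoA desaturase, and Elovl6, a fatty acid elongase, fell. In all, 12 of the 31 tested genes rose and 7 fell, where 26.3% of all genes tested rose and 27.5% fell. The members' shares were 38.7% and 22.6%; the median change was 0.10 for the synthesis genes and -0.04 over all genes tested. With spike-in scaling, which moved the median of all genes to 0.61, 15 rose and 1 (Acss2) fell. On that scale 40.1% of all genes tested rose and 9.99% fell.

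Acss2 read 7.81, 12.6 and 9.13 CPM in activated cells, against 86.1, 111 and 96.7 CPM in resting cells. Every activated library lay far below every resting one, with a change of -3.345 ± 0.25 (edgeR adjusted p = 1.03e-19). Its introns showed the same order, at 4.26, 2.40 and 3.91 CPM in activated cells, against 37.7, 51.8 and 42.7 CPM in resting cells (-3.59 ± 0.47, edgeR adjusted p = 3.10e-09).

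Cyp51 read 224, 193 and 279 CPM in activated cells, against 53.2, 54.0 and 54.5 CPM in resting cells. The groups did not overlap, and the change was 2.10 ± 0.21 (edgeR adjusted p = 2.15e-14). Hsd17b7, a sterol ketoreductase, read 50.1, 36.0 and 54.3 CPM in activated cells, against 7.40, 6.75 and 7.32 CPM in resting cells (2.71 ± 0.31, edgeR adjusted p = 3.90e-12). For Sqle, the squalene epoxidase, the values were 64.3, 55.8 and 106 CPM in activated cells, against 12.8, 14.4 and 16.4 CPM in resting cells (2.35 ± 0.31, edgeR adjusted p = 7.73e-10). All 3 genes were higher in each activated library than in any resting one.

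Fasn read 1065, 599 and 1222 CPM in activated cells, against 208, 179 and 86.6 CPM in resting cells, with no overlap (2.62). Acaca, the acetyl-CoA carboxylase that supplies Fasn, rose by 1.515. Scd2 read 17.8, 19.8 and 25.6 CPM in activated cells, against 58.5, 49.5 and 54.3 CPM in resting cells, and fell by 1.36. Insig1 read 229.8, 232 and 309.5 CPM in activated cells, against 95.6, 118 and 114 CPM in resting cells, and rose by 1.23. Among the other regulators, Scap rose by 1.12 and Srebf2 by 0.79, Insig2 fell by 0.89, and Srebf1 and Stard4 did not pass the test.

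The early mevalonate enzymes were less uniform. Idi1, the isopentenyl diphosphate isomerase, rose by 1.75 and Hmgcs1, which makes HMG-CoA, by 0.93, while Acat2, the acetoacetyl-CoA thiolase, fell by 1.47. The other 4 did not pass the test. Late sterol enzymes went different ways as well. Msmo1, the methylsterol monooxygenase, rose by 1.24, whereas Ebp, a sterol isomerase, fell by 1.12 and Dhcr7, the last reductase of the path, by 0.98. With spike-in scaling the changes of Acat2, Ebp, Dhcr7, Insig2, Scd2 and Elovl6 no longer passed the test. Leaving out the libraries numbered 4, 9 rose and 4 fell, and Acaca, Acat2, Ebp, Hmgcs1, Insig2 and Srebf2 lost their calls; Hmgcs1 also lost its call without the libraries numbered 2, and Dhcr7 without those numbered 3. Of the 4 CD4 T cell markers 1 rose and 2 fell in the same comparison, at sums of 765 to 811 CPM in activated cells, against 913 to 1035 CPM in resting cells; their part in the result was not tested.

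Intron counts, which come mostly from RNA that has not been spliced, gave fewer calls. At 3 h, 6 of 29 tested genes rose in activated over resting cells and 1 fell, where 12% of genes tested in introns rose and 11.1% fell. Besides Acss2, these were Fasn at 102, 100.2 and 99.99 CPM in activated cells, against 37.0, 25.2 and 24.2 CPM in resting cells (1.81, with no overlap), Acaca (2.28), Cyp51 (1.90), Scap and Msmo1 (both 1.5) and Srebf2 (0.84). Each of them also passed the test in exons in the same direction. With spike-in scaling 10 rose and 1 fell, where 23.1% of genes tested in introns rose and 3.69% fell. The fit without the libraries numbered 2 had 3 that rose and 1 that fell, and Cyp51, Msmo1 and Srebf2 were lost. Acaca introns were largely kept under triptolide on the TMM scale. In resting cells they averaged 85.7 CPM at 0 h and 67.6 CPM at 3 h of triptolide. Hmgcs1 introns averaged 14.1 and 0.256 CPM in the same groups. What RNA the Acaca intron reads come from was not tested.

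At 0 h untreated the same comparison called fewer genes. Of 31, 9 rose and 4 fell in activated over resting cells, where 13.9% of all genes tested rose and 12.9% fell; the members' shares were 29.0% and 12.9%. Scd2 led, at 24.1, 49.0 and 30.6 CPM in activated cells, against 103, 108 and 93.3 CPM in resting cells, with no overlap (-1.80 ± 0.28, edgeR adjusted p = 3.19e-07). Fasn read 777, 319 and 624 CPM in activated cells, against 122, 155 and 192 CPM in resting cells, and again the groups were apart (1.92 ± 0.37, edgeR adjusted p = 3.36e-05). Sqle read 39.6, 18.4 and 51.4 CPM in activated cells, against 23.6, 12.1 and 15.0 CPM in resting cells; it rose by 1.32 ± 0.33 (edgeR adjusted p = 0.00124), although activated replicate 3 lay below resting replicate 2. Acat2 read 4.82, 6.13 and 4.05 CPM in activated cells, against 15.0, 15.4 and 13.2 CPM in resting cells, a fall of 1.64 ± 0.40 (edgeR adjusted p = 0.00104) with no overlap.

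Idi1, Lss, Hsd17b7, Cyp51, Srebf2, Scap and Msmo1 also rose at 0 h, and Mvk and Acss2 also fell. The calls depended on which libraries were left out: 3 rose and 1 fell without those numbered 2, 1 rose and 2 fell without those numbered 4, and 11 rose and 5 fell without those numbered 3, among them the activated library with 141028 counts. Scd2 kept its call without each number in turn. With spike-in scaling 7 rose and 2 fell, where 10.5% of all genes tested rose and 3.46% fell. In introns at 0 h, 3 genes rose (Fasn, Scap and Msmo1) and 1 fell (Acss2) of 29, where 7.75% of genes tested in introns rose and 1.98% fell. With the introns' own TMM factors 3 rose and 2 fell, with spike-in scaling 2 rose and 0 fell, and without the libraries numbered 2, 0 rose and 0 fell. Under spike-in scaling 6.34% of genes tested in introns rose and 0.651% fell.

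**Figure D1:**
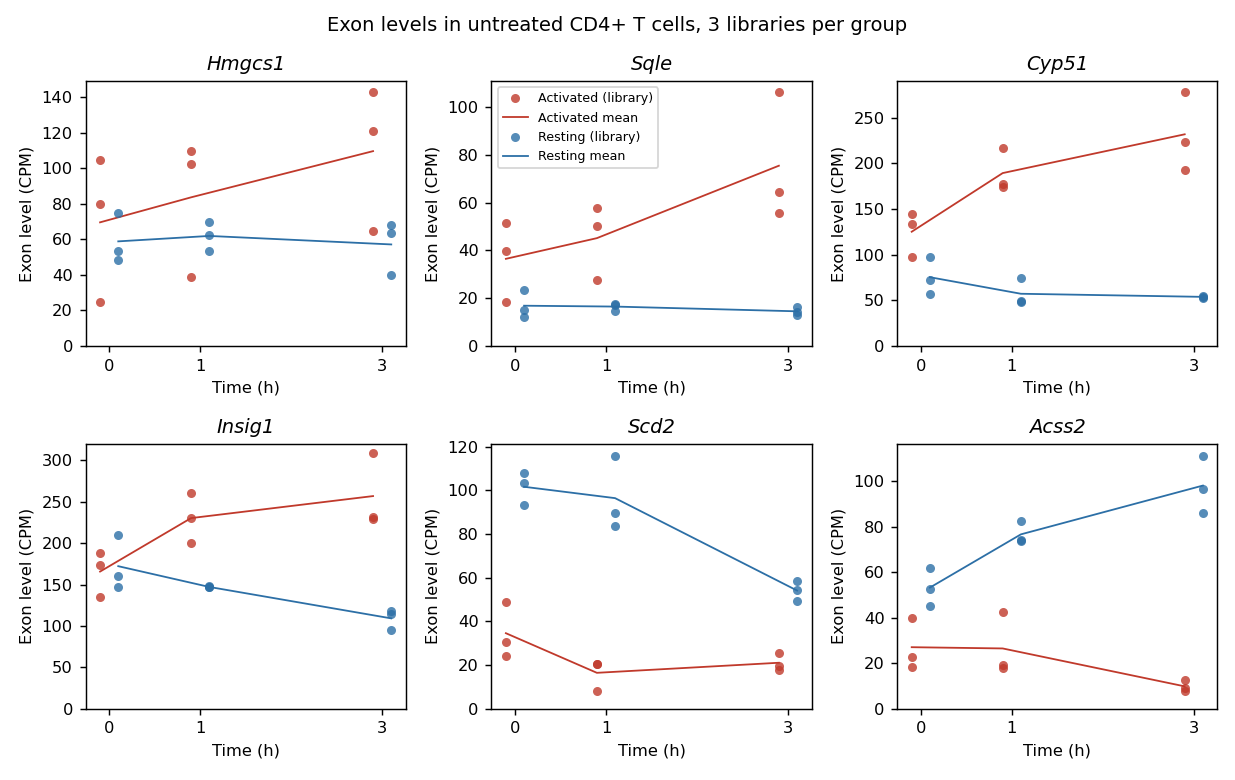
Exon level in CPM (y axis) of Hmgcs1, Sqle, Cyp51, Insig1, Scd2 and Acss2 in untreated cells against time in h (x axis), with a point for each library, activated in red left of resting in blue, and lines through the means of 3. Cyp51 and Acss2 part with time: at 3 h Cyp51 averages 232 CPM in activated cells, against 53.9 CPM in resting cells, and Acss2 9.85 CPM in activated cells, against 98.01 CPM in resting cells.

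Some levels in untreated cells also changed with time, as the plot of untreated levels shows. Within activated cells 4 genes rose and 2 fell between 3 h and 0 h, where 6.05% of all genes tested rose and 7.56% fell. All 4 that rose are sterol branch enzymes: Cyp51 by 0.82 ± 0.21 (edgeR adjusted p = 0.00314), Hsd17b7 by 0.98, Msmo1 by 0.73 and Sqle by 0.86. Acss2 fell by 1.60 ± 0.28 (edgeR adjusted p = 1.35e-05) and Insig2 by 0.93. With the replicate number as a block 10 rose and 2 fell; Idi1, Lss, Scap, Insig1, Acaca and Fasn were the genes gained. Among all genes tested, the block raised the calls in either direction from 1462 to 2728. In the fit without the libraries numbered 4, 0 rose and 0 fell; without those numbered 2, 2 rose and 1 fell. DESeq2 gave 6 that rose and 1 that fell, and spike-in scaling 3 and 1, where 5.32% of all genes tested rose and 2.18% fell. The coding-sequence counts gave 2 and 1, and a fit of only these 6 libraries 2 and 1.

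Over 0, 1 and 3 h, Cyp51 averaged 125 ± 24.1, 189 ± 23.9 and 232 ± 43.3 CPM in activated cells and 75.4 ± 20.6, 57.3 ± 14.9 and 53.9 ± 0.692 CPM in resting cells (SD, n = 3). Sqle averaged 36.5 ± 16.7, 45.1 ± 15.7 and 75.4 ± 26.9 CPM in activated cells and 16.9 ± 5.97, 16.5 ± 1.47 and 14.5 ± 1.81 CPM in resting cells. The Insig1 levels in activated cells were 188.5, 135 and 174 CPM at 0 h, 230.2, 200.5 and 260.4 CPM at 1 h and 229.8, 232 and 309.5 CPM at 3 h. In resting cells Insig1 read 209.5, 147 and 161 CPM at 0 h, 147, 147 and 148 CPM at 1 h and 95.6, 118 and 114 CPM at 3 h, so that the activated and resting libraries overlapped at 0 h and were apart at 1 and 3 h.

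Hmgcs1 differed widely between libraries of a group. In activated cells it read 104, 24.5 and 79.8 CPM at 0 h, 109.6, 39.0 and 102 CPM at 1 h and 121, 64.8 and 143 CPM at 3 h, with replicate 3 lowest each time. In resting cells it read 53.6, 74.5 and 48.4 CPM at 0 h, 69.8, 62.3 and 53.6 CPM at 1 h and 39.7, 63.5 and 68.2 CPM at 3 h.

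Within resting cells only Acss2 rose and only Scd2 fell between 3 h and 0 h, where 3.03% of all genes tested rose and 3.36% fell, shares close to those of the members. Acss2 read 86.1, 111 and 96.7 CPM at 3 h, against 45.0, 61.9 and 52.7 CPM at 0 h, with no overlap (0.88 ± 0.22, edgeR adjusted p = 0.00491). Scd2 read 58.5, 49.5 and 54.3 CPM at 3 h, against 103, 108 and 93.3 CPM at 0 h (-0.91 ± 0.24, edgeR adjusted p = 0.0109). Neither passed with spike-in scaling, where 0 rose and 0 fell, or without the libraries numbered 4.

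The change with time differed between activated and resting cells for 5 of the 31 genes, where the difference was positive for 6.27% and negative for 7.53% of all genes tested. It was more positive in activated cells for Hsd17b7 (difference 1.48 ± 0.45), Cyp51 (1.30 ± 0.29) and Insig1 (1.24 ± 0.32), and more negative for Acss2 (-2.48 ± 0.35) and Insig2 (-1.23 ± 0.43), with edgeR adjusted p between 1.56e-07 for Acss2 and 0.0419 for Insig2. Acss2 kept this difference without each replicate number in turn. When the libraries numbered 4 were left out it alone passed the test, and without those numbered 2, 1 difference was positive and 1 negative.

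The promoters of Hmgcs1, Idi1, Cyp51 and Msmo1 are shown because these 4 sterol genes all rose with activation at 3 h and all fell with cycloheximide and with harringtonine in activated cells at 3 h. Each line holds the 250 bases before the RefSeq transcription start on GRCm38.p6, 5′ to 3′ on the gene's strand: Hmgcs1 chr13:119690101-119690350 (plus strand), Idi1 chr13:8885356-8885605 (plus strand), Cyp51 chr5:4104698-4104947 (minus strand) and Msmo1 chr8:64733579-64733828 (minus strand). In the GENCODE vM21 annotation Idi1, Cyp51 and Msmo1 begin inside these windows, at 8885501, 4104746 and 64733792. Part of their lines therefore lies within the genes as annotated there. Capitals mark the letters of the NF-Y box CCAAT, which reads ATTGG on the other strand, and of the sterol response element TCACNCCAC.
Hmgcs1: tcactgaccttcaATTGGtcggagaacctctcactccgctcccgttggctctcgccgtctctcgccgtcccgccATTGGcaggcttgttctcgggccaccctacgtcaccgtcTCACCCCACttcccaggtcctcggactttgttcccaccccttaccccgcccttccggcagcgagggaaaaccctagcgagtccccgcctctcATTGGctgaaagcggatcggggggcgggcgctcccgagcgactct
Idi1: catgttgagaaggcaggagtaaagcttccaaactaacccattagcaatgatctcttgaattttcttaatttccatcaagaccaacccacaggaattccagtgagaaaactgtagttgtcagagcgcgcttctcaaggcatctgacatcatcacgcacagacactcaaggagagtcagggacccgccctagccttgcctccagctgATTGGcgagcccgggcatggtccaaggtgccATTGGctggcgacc
Cyp51: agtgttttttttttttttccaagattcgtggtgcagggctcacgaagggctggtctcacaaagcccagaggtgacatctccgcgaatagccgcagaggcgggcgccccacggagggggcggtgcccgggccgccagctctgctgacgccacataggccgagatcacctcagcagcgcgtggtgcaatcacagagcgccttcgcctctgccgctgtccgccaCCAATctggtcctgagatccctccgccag
Msmo1: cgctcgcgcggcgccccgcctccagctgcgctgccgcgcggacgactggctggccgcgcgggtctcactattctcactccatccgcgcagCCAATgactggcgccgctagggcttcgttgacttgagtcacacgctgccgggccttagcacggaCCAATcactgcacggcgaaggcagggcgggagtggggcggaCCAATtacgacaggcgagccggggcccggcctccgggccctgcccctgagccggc

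Hmgcs1 holds 1 match to TCACNCCAC, which begins 137 bases before the start, and 3 CCAAT matches; Idi1 holds 2, Cyp51 1 and Msmo1 3 CCAAT matches. RefSeq promoters of 26 of the 33 genes, in 34 windows, could be searched on both strands over these 250 bases. TCACNCCAC was found in 1 of the 26 genes, against 1.22% of all 27025 genes. CCAAT was found in at least 1 window of 20 of the 26 genes, against 37.5% of all genes. The motifs do not share letters in the windows shown, and a match is a description of the letters only.

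Blocking transcription separated these mRNAs by how much was left after 3 h. Per spike-in, 28 of the 31 genes fell with triptolide in activated cells, 27 with DRB in activated cells and 28 with triptolide in resting cells, and 0 rose in any of the 3. Of all genes tested with that scaling, 76.9%, 77.1% and 74.9% fell and 1.47%, 1.25% and 1.62% rose, in the same order. The 0 h libraries used here are labelled with the inhibitor and are separate from the untreated 0 h libraries. Their levels need not match those before the block. Sqle fell to 2.68% of its 0 h level with triptolide in activated cells, to 5.80% with DRB and to 4.16% with triptolide in resting cells. The resting value rests on 6 counts over the 3 libraries at 3 h, against 125 counts at 0 h. Acaca stood at the other end, at 72.0%, 79.9% and 82.4% of its 0 h level, and did not pass the test in any of them.

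**Figure D2:**
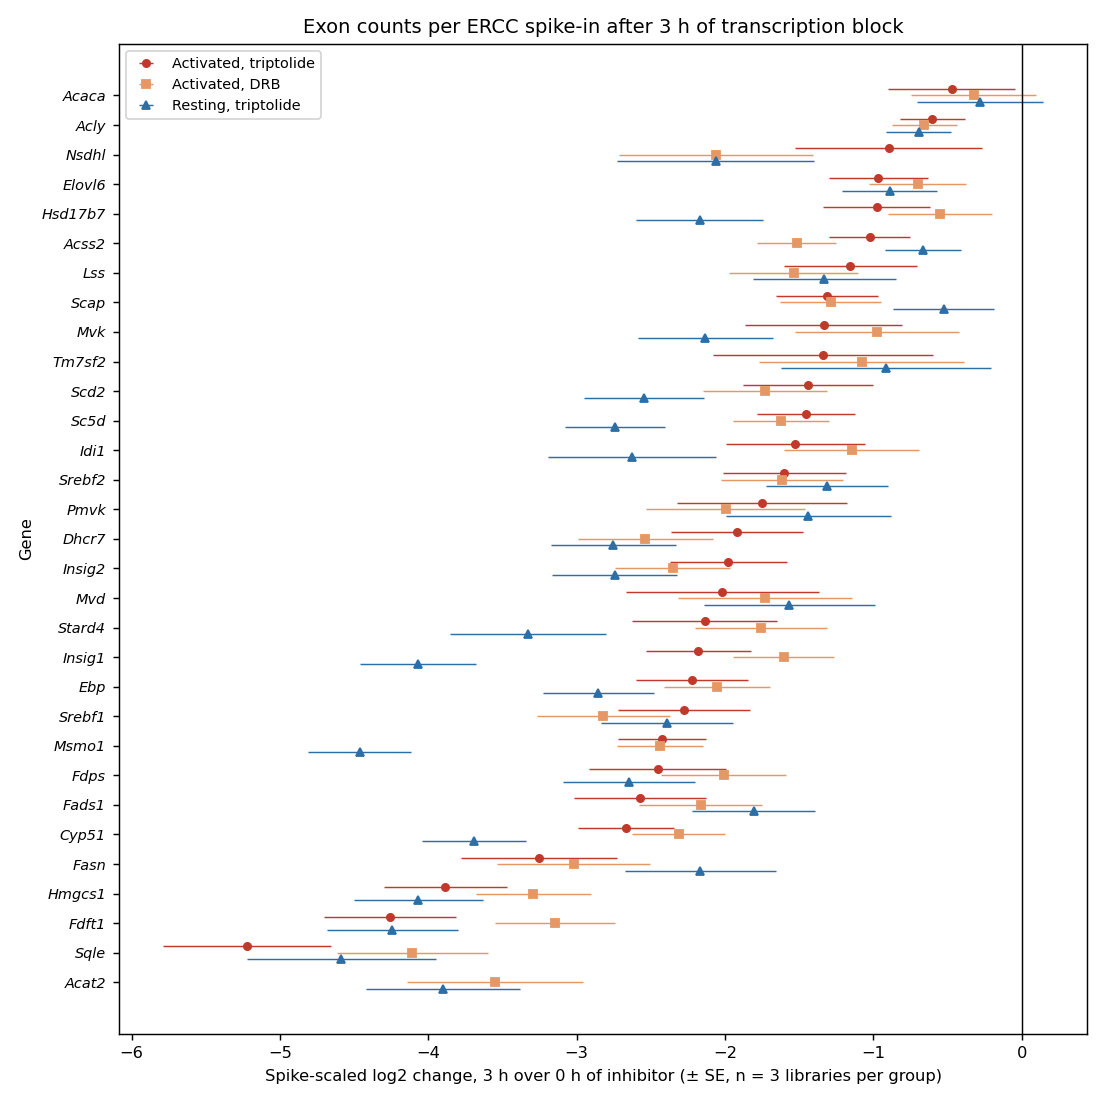
Spike-scaled log2 change of the exon counts between 3 h and 0 h of inhibitor (x axis; mean ± SE, n = 3 libraries a group) for the 31 tested genes (y axis), ordered by activated triptolide (red circles), with activated DRB (orange squares) and resting triptolide (blue triangles). Acaca, Acly, Elovl6 and Acss2 lie right of the median of all genes, which was -1.69, -1.54 and -1.78 in the same order; Sqle, Fdft1 and Hmgcs1 lie far to its left. Acat2 with activated triptolide is not drawn because its 3 h libraries held 1 count in all.

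Relative to the typical mRNA, 5 genes were higher and 10 were lower at 3 h than at 0 h of triptolide in activated cells, where 21.5% of all genes tested were higher and 26.2% lower, and the members' shares were 16.1% and 32.3%. DESeq2 gave 2 higher and 10 lower. Sqle read 3.45, 1.74 and 4.84 CPM at 3 h, against 45.0, 25.6 and 49.2 CPM at 0 h, with no overlap (-3.43 ± 0.44, edgeR adjusted p = 1.14e-09). At 1 h its 3 libraries stood in between, at 9.60, 13.8 and 21.2 CPM. Hmgcs1 read 16.7, 12.2 and 20.98 CPM at 3 h, against 85.2, 60.5 and 78.4 CPM at 0 h (-2.11 ± 0.31, edgeR adjusted p = 3.40e-08). Fdft1, the squalene synthase, read 5.18, 1.74 and 6.46 CPM at 3 h, against 22.2, 32.4 and 30.4 CPM at 0 h (-2.49 ± 0.38, edgeR adjusted p = 7.38e-08). In all 3 genes each 3 h library was below each 0 h library.

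Acly moved the other way on this scale, at 610.1, 619 and 708.5 CPM at 3 h, against 305, 353 and 354 CPM at 0 h, with no overlap (0.94 ± 0.14, edgeR adjusted p = 7.50e-08). Per spike-in Acly fell by 0.60, so it was higher only relative to other mRNAs. Hsd17b7, Elovl6 and Acss2 were also higher relative to other mRNAs, by 0.59 to 0.74, and fell per spike-in, by 0.97 to 1.03. Acaca was higher by 1.21 relative to other mRNAs and stood at -0.47 per spike-in, which did not pass the test. Acat2 held 1 count at 3 h and 41 counts at 0 h, a ratio of 0.0375 of the depth-scaled counts (95% interval 0.000926 to 0.221, counting error only). Cyp51, Fasn, Srebf1, Msmo1, Fads1 and Insig1 were lower as well. Leaving out the libraries numbered 4, 2 were higher and 7 lower, and without those numbered 2, 1 was higher and 10 lower; Sqle, Hmgcs1, Fdft1, Acly, Cyp51 and Fasn kept their calls without each number in turn.

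With DRB in activated cells, 4 genes were higher and 10 lower at 3 h than at 0 h, where 17.9% of all genes tested were higher and 21.9% lower. Sqle read 7.70, 3.80 and 4.07 CPM at 3 h, against 38.3, 28.1 and 37.1 CPM at 0 h, with no overlap (-2.63 ± 0.40, edgeR adjusted p = 1.72e-07). Hmgcs1 was lower by 1.78 and Fdft1 by 1.62, and Acly was higher by 0.92 relative to other mRNAs but lower by 0.66 per spike-in. Elovl6 was likewise higher relative to other mRNAs and fell by 0.70 per spike-in. Hsd17b7 and Acaca were higher relative to other mRNAs too, and stood at -0.55 and -0.32 per spike-in, which did not pass the test. Without the libraries numbered 2, 2 were higher and 6 lower; without those numbered 4, 1 and 8; with coding-sequence counts, 2 and 6.

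Resting cells with triptolide had 5 genes higher and 15 lower at 3 h than at 0 h, where 26.6% of all genes tested were higher and 30.3% lower; the members' shares were 16.1% and 48.4%. Insig1 read 33.2, 25.7 and 39.2 CPM at 3 h, against 204, 139 and 146 CPM at 0 h (-2.31 ± 0.26, edgeR adjusted p = 8.16e-12). Msmo1 read 4.99, 8.88 and 7.68 CPM at 3 h, against 61.1, 41.6 and 41.2 CPM at 0 h (-2.67 ± 0.32, edgeR adjusted p = 3.76e-11). Cyp51 read 16.6, 20.7 and 28.4 CPM at 3 h, against 104.9, 67.1 and 81.3 CPM at 0 h (-1.89 ± 0.24, edgeR adjusted p = 5.12e-10). In each of them the 3 h libraries were all below the 0 h libraries, and per spike-in 5.95% of Insig1, 4.54% of Msmo1 and 7.74% of Cyp51 was left.

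Hmgcs1, Fdft1, Sqle, Acat2, Sc5d, Stard4, Ebp, Scd2, Srebf1, Dhcr7, Insig2 and Fdps were lower in resting cells as well. Acly was higher by 0.99 relative to other mRNAs, as were Scap, Acss2, Acaca and Elovl6. With coding-sequence counts Elovl6 turned to -0.52. Per spike-in Acly, Acss2 and Elovl6 fell, by 0.69, 0.67 and 0.89, and Scap at -0.53 and Acaca at -0.28 did not pass the test. A fit without the libraries numbered 4 had 3 higher and 10 lower. The change with triptolide was less negative in activated than in resting cells for Msmo1 (difference 1.93 ± 0.41, edgeR adjusted p = 0.00125), Insig1 (1.75 ± 0.35, edgeR adjusted p = 5.26e-04) and Sc5d (1.25 ± 0.35, edgeR adjusted p = 0.0166), where the difference was positive for 4.07% and negative for 2.4% of all genes tested. When the libraries numbered 2 were left out, 0 differed; without those numbered 3, 4 differences were positive and 1 was negative.

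In activated cells Insig1 read 113, 137 and 171 CPM at 0 h, 113, 86.6 and 130.1 CPM at 1 h and 106.5, 73.0 and 102.5 CPM at 3 h of triptolide. In resting cells it read 204, 139 and 146 CPM at 0 h, 78.9, 0 and 63.7 CPM at 1 h and 33.2, 25.7 and 39.2 CPM at 3 h, where the 0 belongs to the library with 6300 counts. Msmo1 read 53.2, 52.2 and 58.3 CPM at 0 h, 35.4, 52.2 and 40.8 CPM at 1 h and 38.0, 26.1 and 31.5 CPM at 3 h in activated cells.

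Markers of other cells and of CD4 T cells also moved with the transcription inhibitors. Of 3 tested of 5 myeloid markers, 2 (Adgre1 and Itgam) were higher at 3 h in activated and in resting cells. The 5 summed to 15.0 to 32.3 CPM at 3 h, against 4.35 to 7.77 CPM at 0 h, in activated cells, and to 9.22 to 23.7 CPM at 3 h, against 2.01 to 7.69 CPM at 0 h, in resting cells. With DRB, 1 of 3 was higher and they summed to 10.1 to 14.6 CPM at 3 h, against 4.36 to 6.12 CPM at 0 h. In activated cells 1 of 2 tested B cell markers was higher with triptolide, where the 4 B cell markers summed to 6.96 to 18.4 CPM at 3 h, against 1.45 to 11.4 CPM at 0 h. With DRB 1 of 2 was higher as well, at sums of 3.80 to 17.9 CPM at 3 h, against 1.56 to 13.1 CPM at 0 h. Of the 4 CD4 T cell markers, 3 were higher and 1 lower with triptolide in activated cells, where they summed to 1247 to 1381 CPM at 3 h, against 976 to 1234 CPM at 0 h. With DRB also 3 were higher and 1 lower, at 1173 to 1295 CPM at 3 h, against 956 to 1245 CPM at 0 h. In resting cells with triptolide 1 was higher, at 956 to 1028 CPM at 3 h, against 931 to 994 CPM at 0 h. Their part in the results above was not tested.

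Some of these mRNAs were higher when a translation inhibitor joined triptolide, and Fdft1 rose in all 4 such comparisons. With cycloheximide and triptolide for 3 h, activated cells held 22.5, 20.5 and 26.3 CPM of Fdft1, against 5.18, 1.74 and 6.46 CPM with triptolide alone (2.21 ± 0.38, edgeR adjusted p = 3.11e-06). With harringtonine and triptolide they held 26.2, 37.1 and 28.4 CPM, against the same triptolide libraries (2.60 ± 0.38, edgeR adjusted p = 5.34e-08). In resting cells Fdft1 read 31.8, 20.02 and 16 CPM with cycloheximide and triptolide and 22.1, 25.6 and 21.5 CPM with harringtonine and triptolide, against 1.66, 3.95 and 7.68 CPM with triptolide alone (2.17 ± 0.39 and 2.19 ± 0.40, edgeR adjusted p = 1.04e-05 and 1.21e-05). None of these groups overlapped, and Fdft1 kept each call without each replicate number in turn. The cycloheximide and the harringtonine comparisons share their triptolide libraries.

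**Figure D3:**
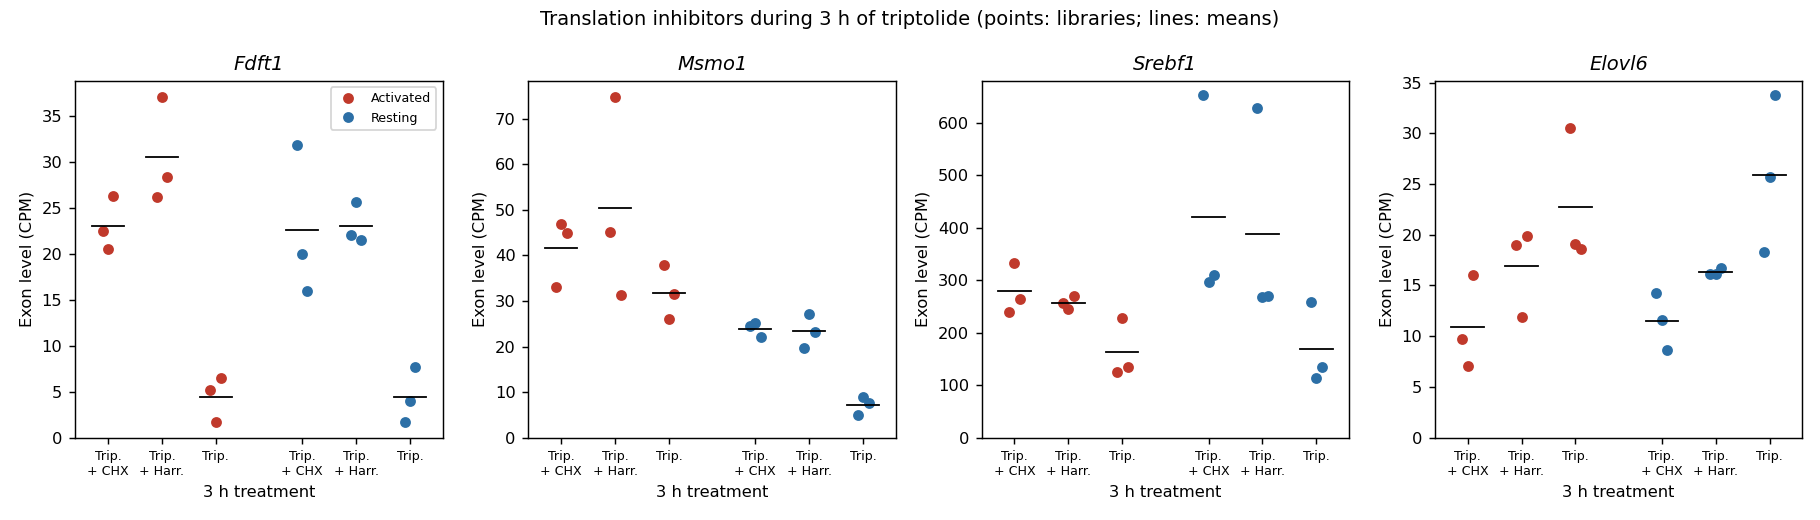
Exon level in CPM (y axis) of Fdft1, Msmo1, Srebf1 and Elovl6 after 3 h with triptolide and cycloheximide (Trip. + CHX), triptolide and harringtonine (Trip. + Harr.) or triptolide alone (x axis), with a point for each library and a line at the mean of 3, activated in red and resting in blue. Fdft1 averages 23.1 and 30.6 CPM with the inhibitors added and 4.46 CPM without in activated cells; Elovl6 goes the other way in activated cells, at 10.9 CPM with cycloheximide added and 22.7 CPM with triptolide alone.

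In activated cells with cycloheximide added to triptolide, 5 genes rose and 4 fell, where 15.8% of all genes tested rose and 11.5% fell, close to the members' shares of 16.1% and 12.9%. Besides Fdft1, Fdps, the farnesyl diphosphate synthase, read 14.8, 16.7 and 15.7 CPM with cycloheximide and triptolide, against 5.18, 3.48 and 8.07 CPM with triptolide alone, with no overlap (1.41 ± 0.38, edgeR adjusted p = 0.00294). Acat2 held 40 counts with cycloheximide and triptolide and 1 count with triptolide alone, a ratio of 18.7 of the depth-scaled counts (95% interval 3.17 to 756). Srebf1 rose by 0.80 and Hmgcs1 by 0.87.

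Elovl6 read 9.75, 7.06 and 16 CPM with cycloheximide and triptolide, against 30.5, 19.1 and 18.6 CPM with triptolide alone, with no overlap (-1.03 ± 0.28, edgeR adjusted p = 0.00322). Insig2, Scap and Acly fell too, Acly by 0.39. With spike-in scaling, which moved the median of all genes to 0.63, 11 rose and 0 fell, and Acly changed sign, to 0.22. On that scale 33.6% of all genes tested rose and 0.291% fell. In a fit without the libraries numbered 2, 4 rose and 1 fell, and without those numbered 4, 3 rose and 2 fell. With harringtonine in place of cycloheximide, 2 rose and 5 fell, where 14.8% of all genes tested rose and 9.84% fell; DESeq2 gave 3 and 3. The 2 were Fdft1 and Acat2, and Acat2 rested on 18 counts with harringtonine and triptolide, against 1 count with triptolide alone (ratio 14.4, 95% interval 2.27 to 599).

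Insig1 read 50.5, 40.4 and 44.8 CPM with harringtonine and triptolide, against 106.5, 73.0 and 102.5 CPM with triptolide alone in activated cells, and fell by 1.08 ± 0.25 (edgeR adjusted p = 4.96e-04) with no overlap. Insig2 read 6.56, 3.97 and 6.40 CPM with harringtonine and triptolide, against 18.4, 12.2 and 14.5 CPM with triptolide alone (-1.46 ± 0.39, edgeR adjusted p = 0.00308). Srebf2, Cyp51 and Acly fell as well. With spike-in scaling 5 rose and 0 fell, where 21% of all genes tested rose and 1.12% fell. Leaving out the libraries numbered 4, 1 rose and 2 fell.

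With cycloheximide added to DRB, 2 genes rose and 1 fell in activated cells, where 10.5% of all genes tested rose and 7.14% fell. Fdft1 read 18.5, 43.3 and 18.7 CPM with cycloheximide and DRB, against 4.40, 2.53 and 15.5 CPM with DRB alone (1.66 ± 0.37, edgeR adjusted p = 5.04e-04), and lost its call without the libraries numbered 3. Srebf1 read 340.1, 299 and 316 CPM with cycloheximide and DRB, against 124, 148 and 128 CPM with DRB alone (1.26 ± 0.28, edgeR adjusted p = 6.73e-04), and Elovl6 fell by 1.20 ± 0.32 (edgeR adjusted p = 0.00448). No groups overlapped among these 3 genes. With the replicate number as a block 7 rose and 5 fell, adding Hmgcs1, Msmo1, Hsd17b7, Ebp, Scap, Acss2, Acly, Acaca and Fasn. Among all genes tested, the block raised the calls in either direction from 1893 to 3443. DESeq2 gave 5 and 1, spike-in scaling 11 and 0, only these 6 libraries 1 and 0, and the fit without the libraries numbered 3, 4 and 2. Under spike-in scaling 28.8% of all genes tested rose and 0.109% fell.

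In resting cells with cycloheximide added to triptolide, 9 genes rose and 2 fell, where 18.8% of all genes tested rose and 16.4% fell. Msmo1 read 24.4, 25.2 and 22.2 CPM with cycloheximide and triptolide, against 4.99, 8.88 and 7.68 CPM with triptolide alone (1.68 ± 0.34, edgeR adjusted p = 5.54e-05). Srebf1 read 653, 297 and 310.2 CPM with cycloheximide and triptolide, against 258, 114.5 and 134 CPM with triptolide alone (1.34 ± 0.28, edgeR adjusted p = 1.26e-04). Each replicate number held more Srebf1 with cycloheximide, and no library with it was below one without it. Elovl6 fell by 1.20 ± 0.28 (edgeR adjusted p = 5.91e-04).

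Cyp51, Acat2, Hmgcs1, Ebp, Insig1 and Stard4 rose too, and Acaca fell. With spike-in scaling 20 rose and 0 fell, where 44.9% of all genes tested rose and 0.127% fell. With coding-sequence counts 7 rose and 0 fell. When the libraries numbered 2 were left out, 4 rose and 1 fell; without those numbered 4, 5 rose and 0 fell; Fdft1, Msmo1 and Srebf1 kept their calls each time. Harringtonine added to triptolide in resting cells gave 6 that rose and 1 that fell, where 14.6% of all genes tested rose and 9.44% fell; DESeq2 gave 7 and 0. Msmo1 read 19.7, 27.1 and 23.3 CPM with harringtonine and triptolide, against 4.99, 8.88 and 7.68 CPM with triptolide alone (1.64 ± 0.34, edgeR adjusted p = 1.17e-04). Srebf1 rose by 1.23, Acat2 by 1.85, Dhcr7 by 1.27 and Stard4 by 1.18, and Elovl6 fell by 0.72, although with coding-sequence counts it stood at 0.96. With the replicate number as a block 8 rose and 5 fell, adding Ebp, Sc5d, Srebf2, Acaca, Scd2 and Fads1. Calls among all genes tested, in either direction, went from 2580 to 4056 with the block. Spike-in scaling gave 9 that rose and 0 that fell, where 26% of all genes tested rose and 0.173% fell. The fits without the libraries numbered 2 or 4 each gave 3 and 0.

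CD4 T cell markers differed between these groups too. In activated cells the 4 markers summed to 790.3 to 905 CPM with harringtonine and triptolide, against 1247 to 1381 CPM with triptolide alone, where 3 of 4 fell, and in resting cells to 801 to 838 CPM, against 956 to 1028 CPM, where 1 fell. With cycloheximide and triptolide, against the same triptolide libraries, they summed to 1278 to 1334 CPM in activated cells, where 1 rose and 1 fell. In resting cells they then summed to 1087 to 1138 CPM, where 1 rose and 0 fell. With cycloheximide and DRB they summed to 1106 to 1241 CPM, against 1173 to 1295 CPM with DRB alone, where 1 rose and 0 fell. Myeloid markers summed to 10.6 to 13.6 CPM with cycloheximide and triptolide, against 15.0 to 32.3 CPM with triptolide alone, in activated cells, and to 5.07 to 8.002 CPM, against 9.22 to 23.7 CPM, in resting cells. Their part in these results was not tested.

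Without a transcription inhibitor, cycloheximide lowered much of the pathway in activated cells relative to the typical mRNA. Per spike-in fewer of the genes fell, as given below. At 3 h, 18 of 31 genes fell and 1 rose relative to untreated activated cells, where 15% of all genes tested fell and 15% rose. The members' share that fell was 58.1%, and the median change was -0.83 for the synthesis genes and -0.01 over all genes. Those that fell were 3 of 7 early mevalonate enzymes, 7 of 11 sterol branch enzymes, 4 of 6 regulators and carriers and 4 of 7 tested fatty acid enzymes. Insig2 was the gene that rose. Harringtonine, set against the same untreated libraries, gave 18 that fell and 2 that rose, Insig2 and Srebf1 (which also rose with cycloheximide once the replicate number was a block, as did Acss2), where 15.5% of all genes tested fell and 15.5% rose.

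Cyp51 read 46.2, 62.9 and 59.0 CPM with cycloheximide, against 224, 193 and 279 CPM in untreated activated cells (-2.05 ± 0.21, edgeR adjusted p = 6.13e-13). Sqle read 13.6, 9.37 and 9.98 CPM with cycloheximide, against 64.3, 55.8 and 106 CPM in untreated activated cells (-2.77 ± 0.32, edgeR adjusted p = 5.04e-11). Msmo1 read 31.3, 45.1 and 24.5 CPM with cycloheximide, against 87.0, 113 and 118 CPM in untreated activated cells (-1.66 ± 0.23, edgeR adjusted p = 1.00e-08). In all 3 genes every treated library was below every untreated one. Insig2 read 35.8, 31.7 and 35.7 CPM with cycloheximide, against 11.7, 9.001 and 13.9 CPM in untreated activated cells, and every treated library was above every untreated one (1.56 ± 0.29, edgeR adjusted p = 1.53e-05).

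With harringtonine Cyp51 fell by 2.16, Sqle by 2.98 and Msmo1 by 1.68, and Insig2 rose by 1.85. Acly read 139.8, 171 and 131 CPM with harringtonine, against 271, 297 and 303 CPM in untreated activated cells (-0.98 ± 0.14, edgeR adjusted p = 4.87e-08), with no overlap. Fdft1 fell by 1.32 with cycloheximide and by 1.01 with harringtonine, and Fasn by 1.68 and 1.52. The cycloheximide and harringtonine comparisons share their 3 untreated libraries, so their values are not independent.

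Spike-in scaling moved the median of all genes to 0.47 with cycloheximide and 0.35 with harringtonine. With cycloheximide 4 then rose and 5 fell, where 24.8% of all genes tested rose and 2.75% fell. With harringtonine 2 rose and 7 fell, where 20.1% of all genes tested rose and 3.56% fell. Sqle, Cyp51, Msmo1 and Idi1 fell on both scales with both inhibitors, and Insig2 rose. Per spike-in Sqle fell by 2.31 with cycloheximide. In the fit without the libraries numbered 4, 1 rose and 8 fell with cycloheximide, and 1 rose and 8 fell with harringtonine; Cyp51, Sqle, Msmo1 and Insig2 kept their calls without each number in turn.

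At 1 h with cycloheximide, Cyp51 alone fell in activated cells, at 102, 94.8 and 138 CPM, against 174, 178 and 217 CPM in untreated cells at 1 h (-0.76 ± 0.20, edgeR adjusted p = 0.0207), where 0.922% of all genes tested fell and 1.71% rose. The block on replicate number gave 0 that rose and 4 that fell, adding Fdps, Sqle and Msmo1. Calls among all genes tested, in either direction, went from 283 to 1461 with the block. Without any one of the replicate numbers, or with spike-in scaling, no filter or only these 6 libraries, 0 fell. Under spike-in scaling 5.98% of all genes tested rose and 0.00909% fell.

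With cycloheximide for 3 h resting cells had 7 genes that fell and 0 that rose, where 12.5% of all genes tested fell and 13.8% rose. Cyp51 read 24.5, 26.0 and 33.4 CPM with cycloheximide, against 53.2, 54.0 and 54.5 CPM in untreated resting cells, with no overlap (-0.93 ± 0.21, edgeR adjusted p = 5.09e-04). Idi1 fell by 1.39, Sqle by 1.13 and Acly by 0.38, and Msmo1, Stard4 and Sc5d fell as well. The direction depended on the scale. With spike-in scaling, which moved the median of all genes to 1.02, 15 rose and 0 fell, and Cyp51 stood at 0.10. On that scale 60.2% of all genes tested rose and 0.291% fell. The block gave 1 that rose and 12 that fell, adding Acat2, Hmgcs1, Fdps, Nsdhl, Srebf2 and Fads1. It also raised the calls among all genes tested, in either direction, from 2824 to 4706. DESeq2 gave 1 and 3, coding-sequence counts 0 and 3, no filter 0 and 3, and the fits without replicate numbers 2, 3 and 4 gave 0 that rose and 3, 4 and 1 that fell.

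CD4 T cell markers were lower with the translation inhibitors alone as well. In resting cells 3 of 4 fell with cycloheximide, at sums of 638 to 678 CPM, against 913 to 1035 CPM untreated, and 3 of 4 with harringtonine, at 554 to 609.8 CPM, against the same untreated libraries. In activated cells 1 of 4 fell with cycloheximide, at 608 to 637 CPM, against 765 to 811 CPM untreated, and 2 of 4 with harringtonine, at 528 to 572 CPM. Their part in the changes of the synthesis genes was not tested.

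With harringtonine in resting cells, 8 fell and 0 rose, where 10.6% of all genes tested fell and 9.84% rose. Acly read 159.3, 139 and 158.6 CPM with harringtonine, against 304, 284.5 and 255 CPM in untreated resting cells, with no overlap (-0.885 ± 0.14, edgeR adjusted p = 2.32e-06). Cyp51 fell by 1.16, Sqle by 1.90 and Fdps by 1.31. Per spike-in, with a median of all genes of 1.01, 11 rose and 0 fell, where 59.1% of all genes tested rose and 0.209% fell. The block gave 0 that rose and 14 that fell, adding Hmgcs1, Ebp, Sc5d, Insig1, Stard4 and Acss2. It also raised the calls among all genes tested, in either direction, from 2198 to 3965. Without the libraries numbered 2 or 3, 0 rose and 5 fell, and without those numbered 4, 0 rose and 3 fell. At 1 h with cycloheximide resting cells had 0 genes called by edgeR, where 0.857% of all genes tested rose and 0.363% fell; DESeq2 also called 0, the block gave 2 that rose (Acat2 and Mvk), and spike-in scaling 6 that rose. The block raised the calls among all genes tested, in either direction, from 131 to 1266 there.

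The cycloheximide change at 3 h differed between activated and resting cells for 6 genes, where the difference was positive for 7.95% and negative for 8.67% of all genes tested. It was more negative in activated cells for Sqle (difference -1.64 ± 0.47), Fdft1 (-1.56 ± 0.38), Cyp51 (-1.12 ± 0.29), Msmo1 (-1.07 ± 0.32) and Scap (-0.89 ± 0.32), and more positive for Insig2 (1.96 ± 0.41), with edgeR adjusted p between 2.66e-04 for Insig2 and 0.0397 for Scap. Fdft1 averaged 14.2 ± 4.35 CPM with cycloheximide, against 35.9 ± 11.6 CPM untreated, in activated cells, and 29.8 ± 2.77 CPM with cycloheximide, against 24.7 ± 6.95 CPM untreated, in resting cells (SD, n = 3). Insig2 averaged 34.4 ± 2.35 CPM with cycloheximide, against 11.5 ± 2.46 CPM untreated, in activated cells, and 16.4 ± 2.93 CPM with cycloheximide, against 21.3 ± 2.94 CPM untreated, in resting cells. Without the libraries numbered 4, 0 differences were positive and 1 was negative (Fdft1); without those numbered 2, 1 and 2; without those numbered 3, 1 and 9. DESeq2 and spike-in scaling each gave 1 positive and 9 negative. Under spike-in scaling the difference was positive for 0.873% and negative for 13.9% of all genes tested.

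Introns of many synthesis genes fell with cycloheximide as well. In activated cells 15 of 29 genes fell in introns and 0 rose, where 18.9% of genes tested in introns fell and 1.16% rose. The median change was -1.43 for the synthesis genes and -0.66 over all genes. Msmo1 introns read 5.49, 6.70 and 2.12 CPM with cycloheximide, against 51.2, 30.0 and 38.7 CPM in untreated activated cells (-3.09 ± 0.45, edgeR adjusted p = 1.68e-07). Fasn introns read 16.8, 16.5 and 20.9 CPM with cycloheximide, against 102, 100.2 and 99.99 CPM in untreated activated cells (-2.47 ± 0.36, edgeR adjusted p = 1.87e-07). Fdft1 introns fell by 3.08, Scap introns by 1.85 and Sqle introns by 3.54. No groups overlapped among the 15. Fdps introns held 2 counts with cycloheximide, against 21 counts in untreated cells (ratio 0.0747, 95% interval 0.00849 to 0.306). With spike-in scaling 8 fell and 0 rose, where 3.61% of genes tested in introns fell and 1.27% rose. Without the libraries numbered 4, 10 fell and 0 rose.

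**Figure D4:**
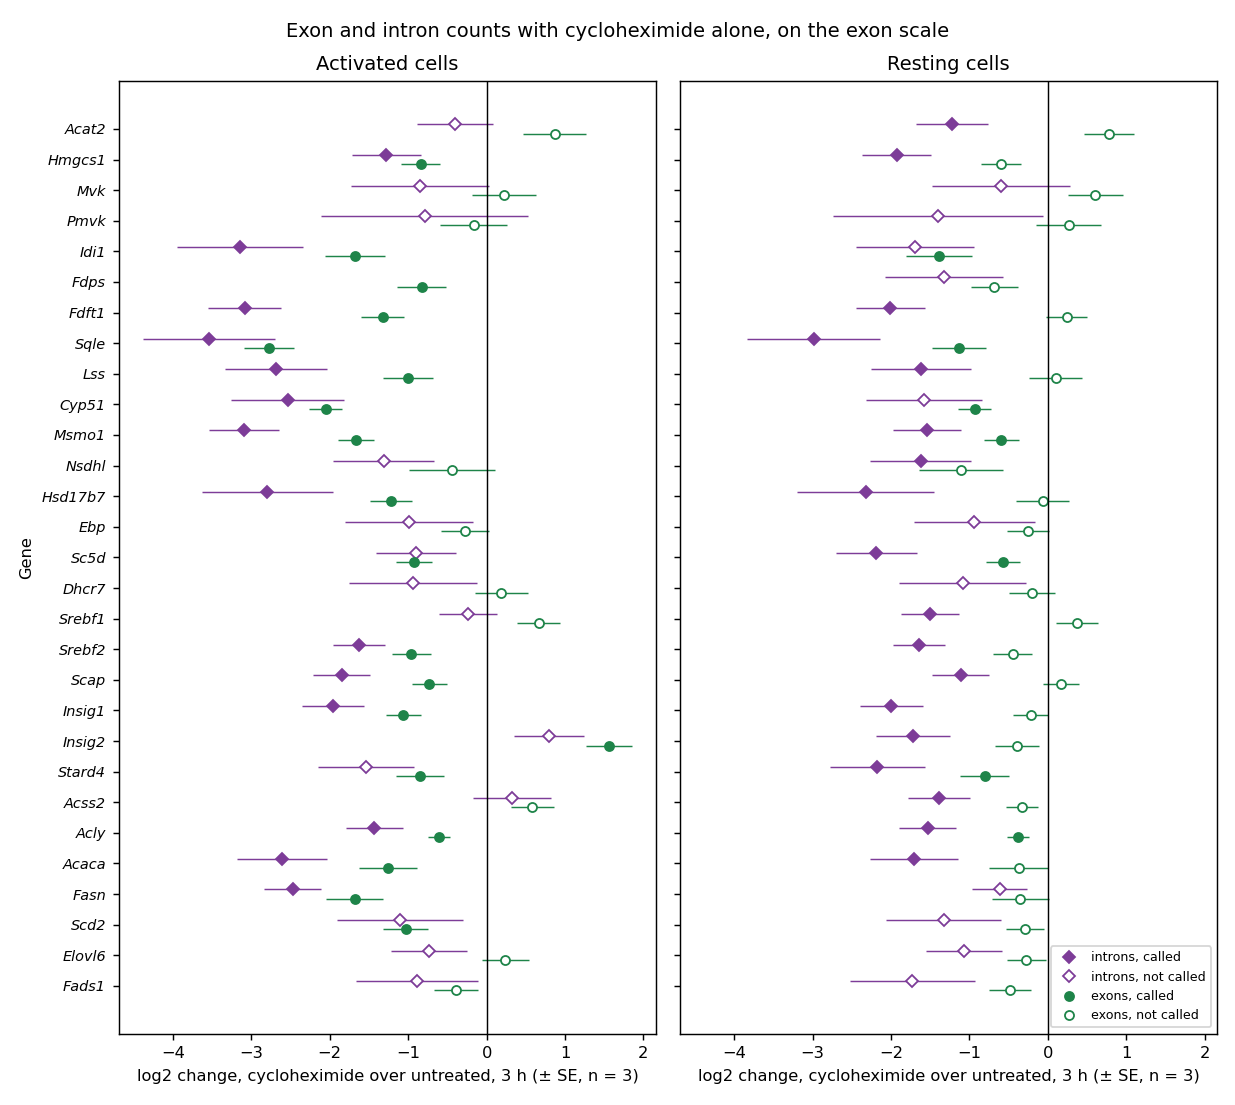
log2 change (x axis; ± SE, n = 3 libraries a group) of intron (purple diamonds) and exon counts (green circles) between cycloheximide and untreated cells at 3 h for the 29 genes tested in introns (y axis), activated cells left and resting cells right, both scaled on exon library sizes; filled symbols passed the test. In activated cells the Msmo1 intron change is -3.09 and its exon change -1.66, while Insig2 exons rise by 1.56. Fdps introns in activated cells are not drawn because they rest on 2 counts.

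In resting cells 18 of 29 fell in introns with cycloheximide and 0 rose, where 49.8% of genes tested in introns fell and 0.161% rose. The median change was -1.58 for the synthesis genes and -1.22 over all genes. Insig1 introns read 8.38, 7.27 and 11.4 CPM with cycloheximide, against 28.9, 40.1 and 40.6 CPM in untreated resting cells (-1.999 ± 0.40, edgeR adjusted p = 9.31e-05), with no overlap. Srebf2, Fdft1 and Hmgcs1 introns fell by 1.64, 2.01 and 1.93. With spike-in scaling, or with TMM factors of the intron counts themselves, 0 fell and 0 rose. Without the libraries numbered 3, 11 fell, and without those numbered 4, 7 fell.

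**Figure D5:**
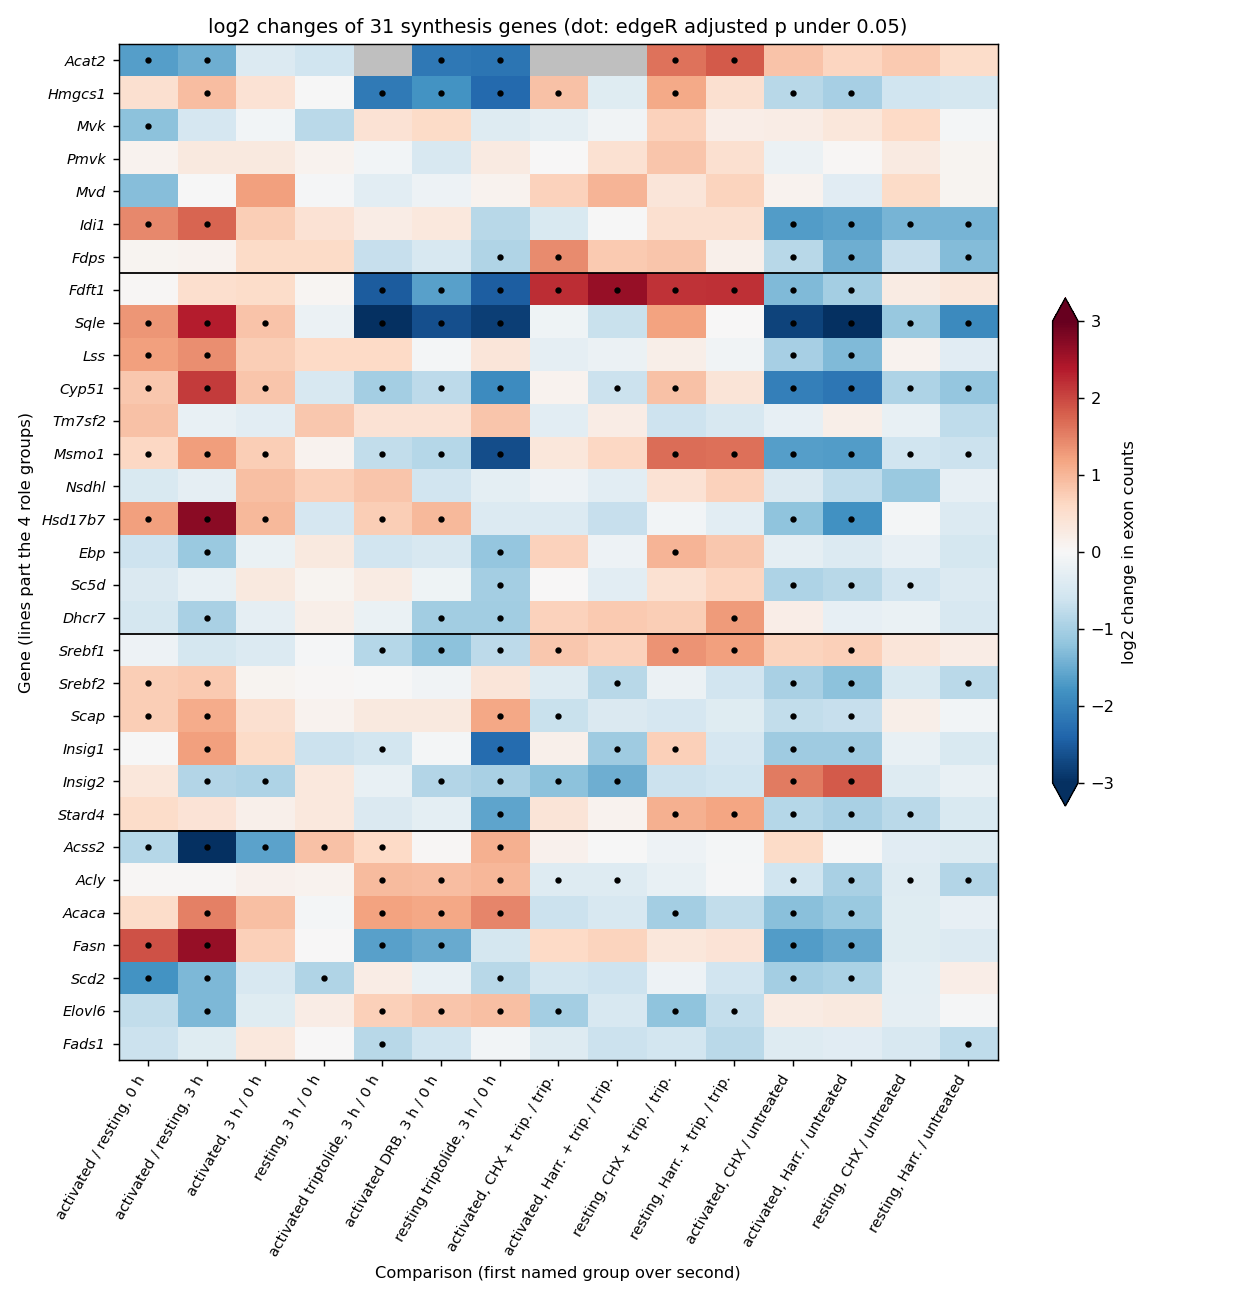
log2 change in exon counts, TMM-scaled, of the 31 tested genes (rows, parted into early mevalonate, sterol branch, regulator and carrier, and fatty acid genes) in 15 comparisons (columns, the first named group over the second), from blue for lower to red for higher; a dot marks an edgeR adjusted p under 0.05 and grey cells rest on 1 count in a group. Fdft1 is red in all 4 columns where a translation inhibitor joins triptolide, from 2.17 to 2.60, and Sqle is blue in all 3 transcription-block columns, from -3.43 to -2.63.

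Genes around the pathway were read from 3 lists. In activated over resting cells at 3 h, where 26.3% of all genes tested rose and 27.5% fell, 6 of the other sterol pathway genes rose and 5 fell, with 14 of 15 tested; Tmem97, a sterol-regulated membrane protein, rose by 3.61 and Nfyc, a subunit of NF-Y, by 1.11. Of sterol efflux and LXR genes, 7 of 9 were tested, and 2 rose and 4 fell; Mylip, an LXR target that degrades lipoprotein receptors, fell by 2.46 and Abcg1, a sterol exporter, by 2.78. Of other fatty acid genes, 12 of 15 were tested, and 5 rose and 1 fell; Acsl5, an acyl-CoA synthetase, rose by 1.73 and Hsd17b12, a reductase of fatty acid elongation, by 1.59.

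With triptolide in activated cells, where 21.5% of all genes tested were higher and 26.2% lower, 2 of 14 other sterol genes were higher and 7 lower, 1 of 7 efflux and LXR genes higher and 1 lower, and 4 of 12 other fatty acid genes higher and 3 lower; Nfyc (-1.68), Nfya (-2.25) and Mylip (-1.84) were among the lower ones. In resting cells with triptolide, where 26.6% of all genes tested were higher and 30.3% lower, these counts were 2 and 6, 1 and 1, and 1 and 3. With cycloheximide alone in activated cells, where 15% of all genes tested rose and 15% fell, 2 of 14 other sterol genes rose and 3 fell, 1 of 7 efflux and LXR genes rose and 1 fell, and 2 of 12 other fatty acid genes rose and 3 fell. There Tmem97 fell by 2.35 and Acsl5 by 1.70, and Elovl5, a fatty acid elongase, rose by 1.12. In resting cells, where 13.8% of all genes tested rose and 12.5% fell, the same treatment gave 1 and 3, 0 and 1, and 1 and 2, and Nfyc rose by 1.28. With cycloheximide added to triptolide in activated cells, where 15.8% of all genes tested rose and 11.5% fell, Nfya rose by 1.52 and Nfyc by 1.09 among 3 other sterol genes that rose and 0 that fell.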

How the data were processed

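The deposited table holds, per the file headers, counts of exon, coding-sequence and intron reads for each gene and of ERCC spike-ins in each library; per the submitters' processing notes the authors used TopHat2 2.0.13, Bowtie 1.1.1.0 and HTSeq with mm10. How these steps were set is not given in the sources used here. Reads not assigned to a gene, which include reads with multiple alignments, made up 75.84% to 97.25% of a library's reads. They stayed out of library sizes. Reads with multiple alignments alone made up 56% in activated 1 h cycloheximide replicate 4, the library with 75.84%. In activated 3 h DRB replicate 3, the library with 97.25%, they made up 91.48%.

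Exon counts of all 105 libraries were fitted with 35 group means in edgeR 4.0.16 (R 4.3.3, TMM factors, robust quasi-likelihood). Genes kept by filterByExpr with a count minimum of 10 numbered 10741 for exons, 10562 for introns and 9803 for coding sequence. Intron counts used the exon library sizes and factors. P-values were adjusted by Benjamini-Hochberg within each of 25 comparisons, with calls at an adjusted p under 0.05. The SE is the log2 change divided by the root of F. DESeq2 1.42.0, spike-in scaling (summed ERCC counts as library size), coding-sequence counts, no filter, only the libraries compared, a block on replicate number, each replicate number left out and the 2 shallowest libraries left out were alternatives. Plots came from matplotlib 3.10.9 under Python 3.11.15.

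In simulated counts for activated triptolide, 3 h against 0 h, on 10741 genes, 49 of 100 genes changed 2-fold and 91 of 100 changed 4-fold were recovered, with 9 false calls. The changed genes were drawn only from those above a minimum mean level, with as many rises as falls. Recovery of genes at lower levels was not measured. Between the 105 pairs of replicates, the lowest values of chi-square divided by its degrees of freedom were 1.145, 1.175 and 3.185. At such low values as the first of these, the ratio cannot tell a copy from a pair with a shallow library. All libraries were counted as separate. The labels call the replicates biological and tie no number to a mouse, so p-values measure the spread between these samples. Whether numbers pair the samples was checked from the deviations from group means. Within a cell state, same-numbered libraries correlated at -0.18 to 0.573 and every pair was over 0.1 in 13 of 16 comparisons, which count as paired; across states the range was -0.206 to 0.109. Intervals on ratios of summed counts cover counting error only.

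The members and lists were chosen with earlier results of these data known. In each comparison at most 4 called members with the smallest p are given in full, and Hmgcs1, Sqle, Insig1 and Scd2 are followed over untreated groups; the other lists give counts and the 2 smallest p. Values of other called members and of further genes on these lists were added after they were seen. Not every gene on these lists is reported here.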

Additional observations from a re-analysis of the deposited data

Results flagged for a closer look

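In 14 cases a change differed between activated and resting cells by the test of the difference itself, in log2 units and adjusted over all genes tested by edgeR. Over all genes tested, the difference was positive for 6.27% with time, 4.07% with triptolide and 7.95% with cycloheximide. It was negative for 7.53%, 2.4% and 8.67% of them, in the same order. For untreated cells at 3 h over 0 h, activated minus resting, the difference was 1.304 for Cyp51 (SE 0.29, adjusted p = 9.07e-04), 1.484 for Hsd17b7 (SE 0.45, adjusted p = 0.0167) and 1.236 for Insig1 (SE 0.32, adjusted p = 0.0045). It was -1.234 for Insig2 (SE 0.43, adjusted p = 0.0419) and -2.484 for Acss2 (SE 0.35, adjusted p = 1.56e-07). With spike-in scaling these were 1.80, 2.01, 1.73, -0.73 and -2.05 in the same order.

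For triptolide at 3 h over 0 h, the difference was 1.932 for Msmo1 (SE 0.41, edgeR adjusted p = 0.00125), 1.252 for Sc5d (SE 0.35, edgeR adjusted p = 0.0166) and 1.752 for Insig1 (SE 0.35, edgeR adjusted p = 5.265e-04). With spike-in scaling they were 2.04, 1.28 and 1.89.

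For cycloheximide over untreated at 3 h, the difference was -1.564 for Fdft1 (SE 0.38, edgeR adjusted p = 0.00177), -1.639 for Sqle (SE 0.47, edgeR adjusted p = 0.00892) and -1.119 for Cyp51 (SE 0.29, edgeR adjusted p = 0.0041). It was -1.07 for Msmo1 (SE 0.32, edgeR adjusted p = 0.0122), -0.8943 for Scap (SE 0.32, edgeR adjusted p = 0.0397) and 1.956 for Insig2 (SE 0.41, edgeR adjusted p = 2.655e-04). With spike-in scaling they were -2.15, -2.29, -1.70, -1.68, -1.47 and 1.40 in the same order.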

How the results depend on the processing

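The counts given here are of synthesis genes called in either direction. The shares of all genes called with spike-in scaling are given above for most of these comparisons. Spike-in scaling moved the count by over 1.5 times in 15 of 25 comparisons, to 28 for activated triptolide, 27 for activated DRB, 0 for resting untreated 3 h over 0 h, 11 for cycloheximide added to DRB, 20 for cycloheximide added to triptolide in resting cells, 9 for cycloheximide and 9 for harringtonine alone in activated cells, 15 for cycloheximide alone in resting cells, 0 and 6 for 1 h of cycloheximide in activated and resting cells, 10 for the difference in the cycloheximide change, and in introns to 2 and 11 for activated over resting at 0 and 3 h and 8 and 0 for cycloheximide in activated and resting cells. TMM factors of the introns themselves gave 0 for cycloheximide in resting cells. Coding-sequence counts gave 3 for activated untreated 3 h over 0 h, 8 for DRB, 7 for cycloheximide added to triptolide and 3 for cycloheximide alone in resting cells, and 3 for the difference with time. DESeq2 gave 6 for cycloheximide added to DRB, 4 for cycloheximide in resting cells and 10 for the difference in the cycloheximide change. Without a filter there were 3 for cycloheximide in resting cells, 0 for 1 h of it in activated cells and 2 in introns at 0 h. Only the libraries compared gave 3 for activated untreated 3 h over 0 h, 1 for cycloheximide added to DRB, 0 and 1 for 1 h of cycloheximide in activated and resting cells and 9 in introns at 0 h. Leaving out the 2 shallowest libraries moved 0 of 25 counts by over 1.5 times.

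The replicate block within each cell state gave 12 for activated and 5 for resting untreated 3 h over 0 h, 12 for cycloheximide added to DRB, 12 and 13 for harringtonine added to triptolide in activated and resting cells, 13 and 14 for cycloheximide and harringtonine alone in resting cells, 4 and 2 for 1 h of cycloheximide in activated and resting cells, 7 and 11 in introns of activated over resting cells at 0 and 3 h, and 8, 7 and 13 for the differences with time, triptolide and cycloheximide. Activated over resting cells and the differences share only a number across cell states and were not counted as paired. Resting untreated 3 h over 0 h, activated triptolide and activated harringtonine with triptolide held a pair under 0.1 and were not counted as paired. The lowest pair was 0.0853 in activated triptolide and 0.0736 in activated harringtonine with triptolide, close to that limit. The main fit used no block in any comparison. The block ended 0 calls of synthesis genes and changed no other count by over 1.5 times. It also called more of all genes tested in every comparison.

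With each replicate number left out in turn, activated over resting cells gave 3 to 16 at 0 h and 13 to 19 at 3 h; untreated 3 h over 0 h gave 0 to 6 in activated and 0 to 2 in resting cells; triptolide gave 9 to 13 in activated and 13 to 18 in resting cells and DRB 8 to 13. Cycloheximide added to triptolide gave 5 to 9 in activated and 5 to 11 in resting cells, added to DRB 2 to 6, and harringtonine added to triptolide 3 to 7 in each. Cycloheximide alone gave 9 to 19 in activated and 1 to 4 in resting cells, harringtonine alone 9 to 17 and 3 to 5, and 1 h of cycloheximide 0 to 0 in each. Introns gave 0 to 2 and 4 to 6 for activated over resting cells at 0 and 3 h, and 10 to 13 and 7 to 17 for cycloheximide in activated and resting cells. The differences gave 1 to 5 with time, 0 to 5 with triptolide and 1 to 10 with cycloheximide.

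Spike-in scaling turned 24 called changes round. With activated triptolide Hsd17b7 became -0.979, Acss2 -1.03, Acly -0.603, Acaca -0.473 and Elovl6 -0.966; with activated DRB Hsd17b7 became -0.551, Acly -0.657, Acaca -0.323 and Elovl6 -0.70; with resting triptolide Scap became -0.526, Acss2 -0.665, Acly -0.693, Acaca -0.28 and Elovl6 -0.891. With cycloheximide added to triptolide in activated cells Acly became 0.217. With cycloheximide alone in resting cells Cyp51 became 0.0979, Msmo1 0.482, Sc5d 0.52, Stard4 0.259 and Acly 0.655, and with harringtonine alone in resting cells Msmo1 became 0.445, Srebf2 0.201, Acly 0.152 and Fads1 0.282. Coding-sequence counts turned Elovl6 with resting triptolide to -0.523, Elovl6 with harringtonine added to triptolide in resting cells to 0.962 and Scd2 with harringtonine in activated cells to 0.0603, and intron TMM factors turned Scap introns with cycloheximide in resting cells to 0.0393. The cause was not tested. Of called single changes, 78, 47 and 128 of 239 lost their call without replicate numbers 2, 3 and 4, and 19 of 195 under DESeq2. Depth limits what can be said of Acat2, Tm7sf2, Nsdhl and the genes with few intron counts. It also limits Sqle and Fdft1 after 3 h of triptolide in resting cells, which held 6 and 15 counts over the 3 libraries. Scd1 and Fads2 were too low to test.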
